A study of Mus musculus with 6 samples.

Results

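The signal-regulatory proteins (SIRPs) are immunoglobulin-type receptors of myeloid cells, and CD47 is the surface protein that their inhibitory member recognizes. The set covered 7 genes, namely Sirpa, Sirpb1a, Sirpb1b, Sirpb1c, Gm9733, Gm5150 and Cd47, and every row of the value table whose annotation lists 1 of them was taken, which gave 7 of 41345 probe sets. Of these rows, 6 list a single member, 1 lists Sirpb1a together with Sirpb1b, and Sirpb1b has no row of its own, so 6 of the 7 genes have a value that is theirs alone. The family was chosen by its EE and SE values on these arrays, among which Sirpb1a and its neighbours had stood out, so the differences between groups below are a description and are not tested. Whole blood was collected by cardiac puncture from 6 male CD1 mice, an outbred stock, that the labels give as 9 weeks old. For 2 weeks 3 of them lived in the enriched environment (EE), a larger cage that held a running wheel, a nest house and a tunnel, and 3 in a standard environment (SE), and none received an inflammatory stimulus. Each mouse gave total RNA for 1 Affymetrix array of whole transcripts, and which of these mice shared a cage is not given in the sources used here.

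SIRPα, the product of Sirpa, carries inhibitory tyrosine motifs in its tail. When it binds CD47 on another cell it recruits the phosphatases SHP-1 and SHP-2 and holds back phagocytosis, which is how circulating red cells and platelets are spared by macrophages. The SIRPβ receptors, among them those of the Sirpb1 genes, have a short tail without such motifs and pair with the adaptor DAP12, which activates the kinase SYK, and they do not need CD47 as a ligand. In blood, SIRPs are found mainly on neutrophils, monocytes and dendritic cells, whereas nearly every blood cell displays CD47. The genes lie in 3 places in the GRCm38.p6 assembly, with Sirpa on chromosome 2, Cd47 on chromosome 16 and the other 5 in a row on chromosome 3, in the order Gm9733, Sirpb1a, Sirpb1b, Sirpb1c and Gm5150. No protein-coding gene lies between any neighbours in that row.

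The promoters of 4 of the 5 chromosome 3 genes are close copies of each other. RefSeq promoter windows for GRCm38.p6, the assembly of the C57BL/6J strain, run from 250 bases before to 50 after a start site and were matched for 5 members, Sirpb1a, Sirpb1b, Sirpb1c, Gm5150 and Cd47. Pairwise alignment gave an identity of 98.1% over 259 bases between Sirpb1b and Sirpb1c, of 95.7% over 207 bases between Sirpb1a and Sirpb1b and of 95.6% over 248 bases between Sirpb1a and Sirpb1c. Gm5150 was further off, with 87.8% over 287 bases against Sirpb1a, 86.6% over 194 against Sirpb1b and 87.2% over 235 against Sirpb1c. The stretch that all 4 windows hold is shown because these genes lie in 1 row, which makes it visible how alike the sequences beside their starts are. It reads 5′ to 3′ on the minus strand, at chr3:15426471-15426664 for Sirpb1a, chr3:15575016-15575209 for Sirpb1b, chr3:15848479-15848672 for Sirpb1c and chr3:16006388-16006582 for Gm5150. Capitals mark a match to AGGAAGT on the opposite strand, a form of the GGAA core bound by ETS family factors, to which the myeloid regulator PU.1 belongs.
Sirpb1a: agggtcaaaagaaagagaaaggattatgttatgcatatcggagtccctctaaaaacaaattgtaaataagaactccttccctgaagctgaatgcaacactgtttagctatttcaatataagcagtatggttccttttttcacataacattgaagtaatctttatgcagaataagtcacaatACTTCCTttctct
Sirpb1b: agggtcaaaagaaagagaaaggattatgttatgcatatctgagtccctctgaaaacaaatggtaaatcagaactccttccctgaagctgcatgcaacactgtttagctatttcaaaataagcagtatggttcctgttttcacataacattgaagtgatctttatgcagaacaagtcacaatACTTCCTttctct
Sirpb1c: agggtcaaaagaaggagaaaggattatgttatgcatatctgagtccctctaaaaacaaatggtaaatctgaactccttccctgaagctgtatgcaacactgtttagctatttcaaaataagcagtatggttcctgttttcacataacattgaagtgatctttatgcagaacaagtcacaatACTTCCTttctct
Gm5150: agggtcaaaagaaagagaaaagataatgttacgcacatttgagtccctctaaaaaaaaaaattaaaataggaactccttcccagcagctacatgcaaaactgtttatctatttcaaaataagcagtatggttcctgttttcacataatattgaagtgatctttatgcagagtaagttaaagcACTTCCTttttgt

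Of 194 bases aligned in all 4 genes, 161 were identical. AGGAAGT was searched on both strands after the sequences had been seen. It occurs in 4 of these 4 windows, in neither of 2 windows of Cd47 and in 9.35% of 32817 promoter windows of the same length, and copies of 1 sequence are not independent occurrences. The match begins at base 182 of the Sirpb1a stretch and at the aligned base of the other 3. The annotated starts differ, so that it lies 56 bases before the start in Sirpb1a and 37 bases after it in Sirpb1b. TTGCNNAA, TGTGGT and TATAAA, letters used for C/EBP, RUNX and TATA-binding proteins and also searched on both strands, were in 0 of the 4 windows and in 10.8%, 16.8% and 13.6% of all windows. The Cd47 promoter is of another kind, with a GC content of 74.0% and 74.3% in its 2 windows against 38.0% to 39.0% in the other 4 and a median of 52.7% over all windows. A match of letters is a description of the sequence and shows no binding.

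**Figure D1:**
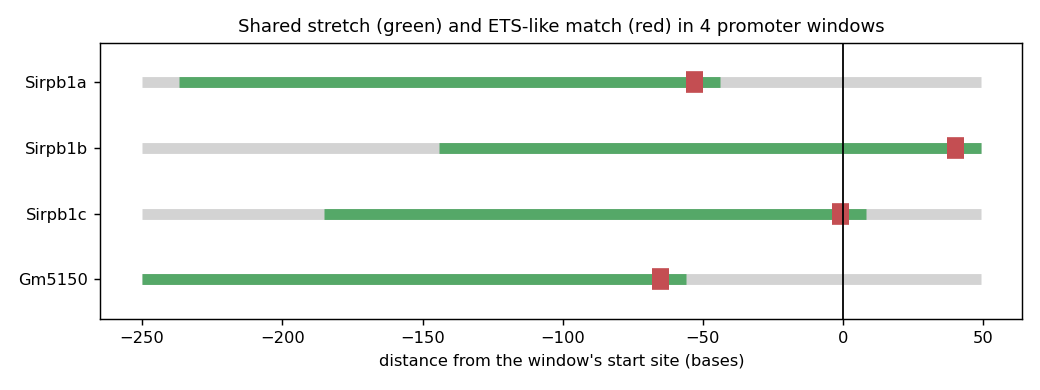
Promoter windows of 4 genes, drawn as grey bars along the distance in bases from the start site of each window, with the stretch that all 4 hold in green and the match to AGGAAGT in red. The match keeps its place at the end of the shared stretch while its distance from the annotated start runs from 68 bases before in Gm5150 to 37 bases after in Sirpb1b.

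Values are the log2 values of the deposited table, normalized by the robust multiarray average (RMA), and the level of a probe set is compared between mice and never with that of another probe set. The study left out probe sets whose expression was under 100 on the linear scale. Taken on the average of the 6 arrays, this minimum kept 6154 probe sets with an Entrez gene, among them 6 of the 7 described here. Sirpb1a fell just outside, with a mean over the arrays equal to 88.3 on the linear scale, and Gm9733 just inside, with 103. Gm9733 passed only through its EE mice, with group means equal to 117 in EE and 90.3 in SE on the linear scale. Had 100 been asked of at least 3 single arrays, Sirpb1a would have been kept. Over the probe sets kept, the correlation of EE mouse 3 with the other arrays averaged 0.932, against 0.956 to 0.965 for the other mice, and values that changed most without this mouse are given in both ways.

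Sirpa had higher values in all EE mice. SE mice 1, 2 and 3 read 8.24, 8.25 and 8.04, and EE mice 1, 2 and 3 read 8.47, 8.44 and 8.68. The groups did not overlap, although the gap between the nearest mice was 0.18, and EE mouse 3 stood highest. The means were 8.53 ± 0.13 (SD, n = 3) in EE and 8.18 ± 0.12 (SD, n = 3) in SE, a log2 difference of 0.35 (standard error 0.13), which is 1.28-fold.

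Sirpb1a, an activating receptor of myeloid cells, had the widest difference among the 7 probe sets. In the order of the mouse numbers, the SE mice read 6.01, 5.83 and 5.60, and the EE mice read 6.91, 7.43 and 7.001. All 3 EE mice and no SE mouse reached the minimum, and the gap between the nearest mice was 0.90. On the linear scale the group means correspond to 138 in EE and 56.3 in SE, a 2.46-fold difference. The log2 difference was 1.30 (standard error 0.18, from the fit over all probe sets, since this one fell under the minimum).

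The probe set shared by Sirpb1a and Sirpb1b, which cannot be assigned to either, also separated the EE mice from the SE mice. Here SE mice read 8.05, 8.02 and 7.73, whereas EE mice read 9.00, 9.19 and 8.66. Every EE mouse stood above every SE mouse by at least 0.61. EE mouse 2 was highest here as it was for Sirpb1a, whereas the lowest EE mouse was EE mouse 3 here and EE mouse 1 for Sirpb1a. The means were 8.95 ± 0.27 (SD, n = 3) in EE and 7.93 ± 0.18 (SD, n = 3) in SE, a log2 difference of 1.01 (standard error 0.18).

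Sirpb1c, the third SIRPβ gene of the row, separated 2 of the EE mice from the rest and not EE mouse 3. The readings were 6.85, 6.76 and 6.42 under SE, and 7.69, 7.75 and 6.68 under EE. EE mouse 3 therefore fell among the SE mice, and the groups overlapped. Its log2 difference was 0.70 (standard error 0.29), with an SD of 0.60 in EE and of 0.23 in SE, and it was 1.04 without EE mouse 3. The SIRPβ genes are close paralogs, and binding of probes across them was not tested, so their separate values are uncertain to that extent.

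The predicted genes at either end of the row differed from each other. For Gm5150, next to Sirpb1c, SE mice read 7.33, 6.60 and 6.37 and EE mice 7.96, 7.92 and 7.47. SE mouse 1 came within 0.13 of EE mouse 3, and the other SE mice were well below. The log2 difference was 1.02 (standard error 0.26), a 2.02-fold difference that was 1.30 on the log2 scale without SE mouse 1 and 0.82 without SE mouse 3. For Gm9733, next to Sirpb1a, SE mice read 6.62, 6.55 and 6.31 and EE mice 6.89, 6.65 and 7.06. Its groups were separated by only 0.03, less than either SD (0.16 in SE and 0.20 in EE), and its log2 difference was 0.37 (standard error 0.16).

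Cd47, the ligand gene, barely differed between the groups. Readings were 10.68, 10.59 and 10.50 under SE, and 10.73, 10.68 and 10.58 under EE. The groups overlapped, and the log2 difference of 0.07 (standard error 0.12) was no larger than the SD within a group, which was 0.07 in EE and 0.09 in SE. In blood this transcript can come from leukocytes, platelets and reticulocytes alike, and the array does not separate them.

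**Figure D2:**
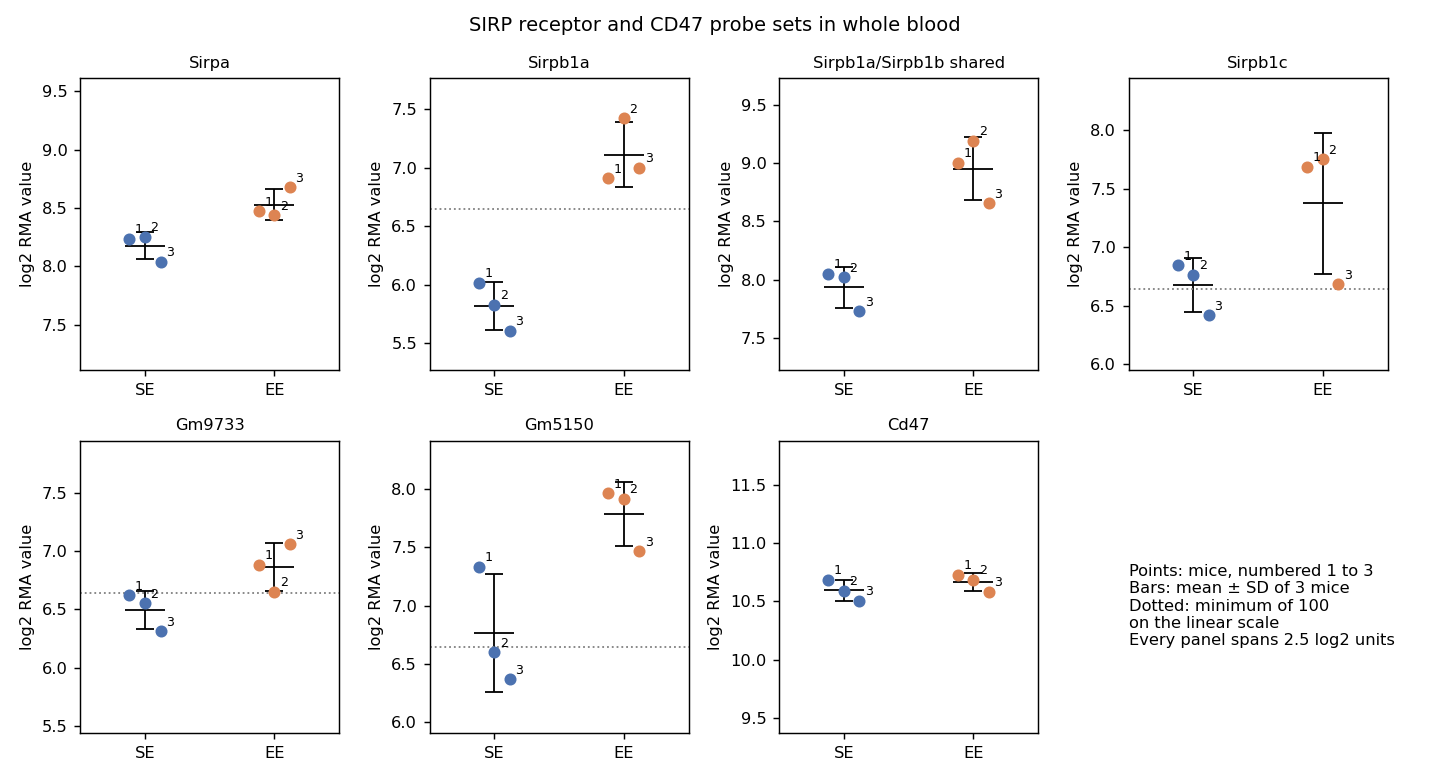
Log2 RMA values of the 7 probe sets in 3 SE (blue) and 3 EE (orange) mice, numbered 1 to 3, with bars for the mean ± SD of 3 mice and a dotted line at the minimum of 100 on the linear scale. Every panel spans the same range of log2 units, so the gap of 0.90 for Sirpb1a can be set beside the overlap for Cd47 and for Sirpb1c.

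Across the 7 probe sets the EE mean was above the SE mean in 7, and the groups did not overlap in 5, with every EE mouse above every SE mouse. That count was 6 after quantile normalization and 7 after median centring or without EE mouse 3, so the overlap of Sirpb1c and of Cd47 depends on that scaling and on that mouse. Of all 41345 probe sets, 3.76% had that arrangement, and of the 6154 above the minimum 3.92%. The median log2 difference was 0.70 over the 7 probe sets and -0.01 over all probe sets. Of the 6 above the minimum, 5 were called higher at an unadjusted p under 0.05 from limma, against 1.46% of the probe sets tested. Among these 5, Gm9733 passed the minimum only through its EE values. Of the 6, only the shared probe set and Gm5150 also passed the fold of 2 that the study required, against 0.114% of those tested. Sirpb1a, at 2.46-fold, was left out by the minimum as read here. The study counts Sirpb1a among its higher genes and reports its higher level by reverse transcription PCR as well. Which probe set it read as Sirpb1a is not stated, and the shared probe set also lists that gene. Since the family was picked on this same contrast, nothing is read from these shares. None of the 6154 probe sets tested passed an adjusted p of 0.05 from limma, where 283 of them passed an unadjusted p under 0.05. With 3 mice a side an exact permutation test of 1 value cannot go below p = 0.1. In place of 5, the count was 3 when SE mouse 1 was left out and 2 when SE mouse 2, SE mouse 3 or EE mouse 1 was. The shared probe set and Gm5150 were called in 6 of 6 fits with a mouse left out, Sirpa and Gm9733 in 2 and Sirpb1c in 1.

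Most genes of the pathway around the receptors were not called. The pathway was followed through 44 genes in 7 lists, of which 41 had a probe set of their own and 29 passed the minimum and were tested. By limma, 2 of the 29 were higher and 5 lower at an unadjusted p under 0.05, against 1.46% and 3.14% of all probe sets tested, and 0 passed an adjusted p of 0.05. All 5 lower genes belonged to red cells. Of the activating arm 1 of 6 tested genes was higher and 0 lower (median log2 difference -0.11), and of the inhibitory arm 0 of 7 were called (median 0.04). Of 7 calls in all, 4 were made when SE mouse 1 or SE mouse 3 was left out, and 3 when EE mouse 1 or EE mouse 2 was. In some of these fits the genes were others than those in the full comparison. The lists were written with earlier results of these arrays known, including those for several red cell and neutrophil genes.

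Tyrobp, which encodes DAP12, the adaptor through which SIRPβ receptors signal, was the gene of the activating arm that was called. Readings were 9.62, 9.80 and 9.60 under SE, and 10.06, 10.14 and 10.08 under EE. The groups did not overlap, and the EE mice differed little among themselves (SD 0.04). Its log2 difference of 0.42 (standard error 0.12) had an unadjusted p = 0.00992 from limma, which is an adjusted p = 0.805 over all those tested. The gene was called in 6 of 6 fits with a mouse left out. DAP12 also serves many other receptors of myeloid and natural killer cells. The kinase gene Syk lay at 9.17 ± 0.18 (SD, n = 3) in EE and 9.33 ± 0.21 (SD, n = 3) in SE, a log2 difference of -0.16 (standard error 0.16). The other adaptors and signalling genes tested, Fcer1g, Plcg2, Vav1 and Lat2, had log2 differences between -0.15 and 0.28, none of them called.

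Of the phosphatases that SIRPα recruits, Ptpn6, which encodes SHP-1, lay at 9.82 ± 0.17 (SD, n = 3) in EE and 9.87 ± 0.17 (SD, n = 3) in SE. Ptpn11, which encodes SHP-2, had a log2 difference of 0.16 (standard error 0.24), with SE mouse 1 at 8.98 and EE mouse 3 at 9.16 above the other mice of their groups. Skap2 and Fyb, adaptors that bind in the SIRPα complex, had log2 differences of 0.25 each (standard errors 0.26 and 0.19), and Fgr, a Src family kinase of myeloid cells, one of 0.26 (standard error 0.17). None of these was called.

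Among genes tied to CD47 itself, 0 of 6 tested partners were called. Thbs1, which encodes the CD47 ligand thrombospondin 1 and is abundant in platelets, had a log2 difference of 0.42 (standard error 0.35), with EE mouse 3 at 12.09 and the other EE mice at 11.17 and 10.80. Gnai2, the inhibitory G protein subunit that couples to CD47, read 10.28, 10.34 and 10.27 under SE, and 10.60, 10.57 and 10.49 under EE, without overlap, and its log2 difference of 0.25 (standard error 0.12) had an unadjusted p = 0.0631 from limma. It was called without EE mouse 3. Sftpa1 and Sftpd, lung collectins that bind SIRPα, were under the minimum on every array. Of 4 tested receptors and ligands of phagocytosis 1 was higher, Itgam, the CD11b chain of complement receptor 3, with a log2 difference of 0.51 (standard error 0.21). Itgam overlapped between groups, since SE mouse 2 lay at 8.48 and EE mouse 2 at 8.45, and it was called in 2 of 6 fits with a mouse left out.

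The red cell proteins among which CD47 sits had lower transcripts in EE mice. In human red cells CD47 is held in a membrane complex with Rh proteins, the anion exchanger band 3 and protein 4.2, and 5 genes of that complex and its anchor were tested. All 5 were called lower and 0 higher at an unadjusted p under 0.05 from limma, against 3.14% and 1.46% of all probe sets tested. Rhd, which encodes the mouse Rh protein, read 8.40, 8.41 and 7.97 under SE, and 7.53, 7.53 and 7.76 under EE, a log2 difference of -0.65 (standard error 0.16). Slc4a1, which encodes band 3, had a log2 difference of -0.52 (standard error 0.17) and Rhag, which encodes the Rh-associated glycoprotein, one of -0.52 (standard error 0.19), and neither overlapped between groups. Epb42, which encodes protein 4.2, and Ank1, the ankyrin of the membrane skeleton, had log2 differences of -0.73 (standard error 0.26) and -0.69 (standard error 0.27), with EE mouse 3 above 1 of the SE mice in each. Rhd was called in 6 of 6 fits with a mouse left out, Slc4a1 in 4, Rhag in 3 and Epb42 and Ank1 in 2. Cd47, by its own values above, was not lower.

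**Figure D3:**
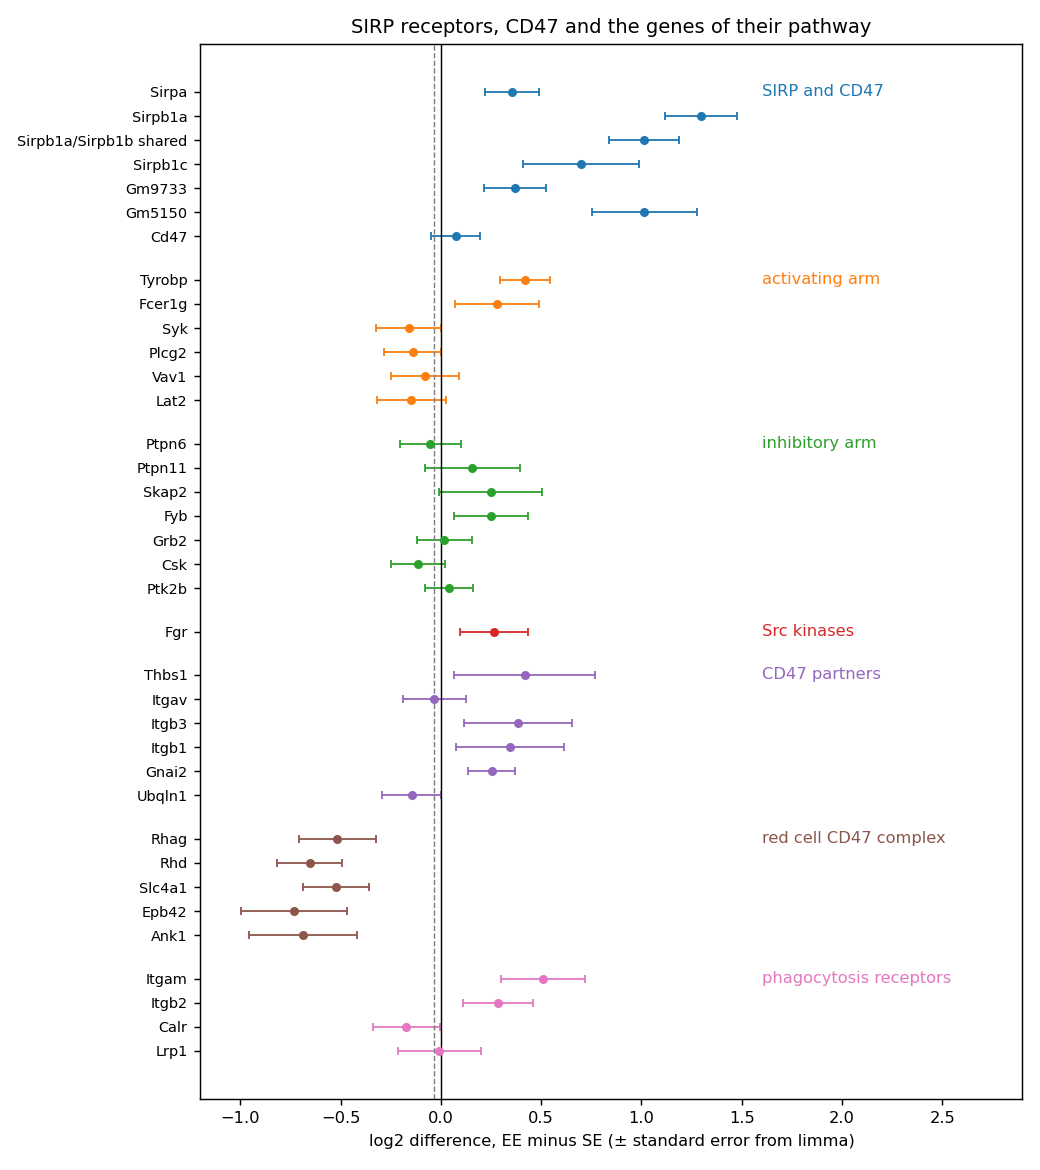
Log2 differences between EE and SE mice with their standard errors, for the 7 SIRP and CD47 probe sets and the 29 tested genes of the pathway, with lines at 0 (solid) and at the median of all probe sets tested (dashed, -0.03). The SIRP probe sets lie between 0.35 and 1.30, Cd47 at 0.07, Tyrobp at 0.42 and the 5 red cell genes between -0.73 and -0.52.

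Neutrophil markers differed between the same mice, whereas most monocyte markers were not called. In whole blood, a change in the number of cells of a type and a change in RNA per cell cannot be told apart. The study's blood counts gave EE mice a higher percentage of neutrophils and a lower one of lymphocytes, without a difference in numbers. Whether the mice of the arrays were among those counted is not stated. Of 17 neutrophil markers 15 had a probe set and 7 were tested, of which 5 (Csf3r, Cxcr2, Mmp8, Mmp9 and Lcn2) were called higher and 0 lower by limma before adjustment, against 1.46% and 3.14% of all probe sets tested, with a median log2 difference of 0.61. They ran from Retnlg, at 0.31 (standard error 0.17), to Lcn2, at 0.76 (standard error 0.30). The other 8, among them the defining marker Ly6g, were under the minimum. Fpr2, which was tested and not called, passed the minimum only through its EE values. Its group means were equal to 129 in EE and 86.6 in SE on the linear scale. The summed linear level of all 15 ranged from 3836 to 4889 in SE and from 6067 to 7309 in EE mice, so it did not overlap. That sum rests mostly on the probe sets with the highest values, Csf3r, Cxcr2, Retnlg and Mmp9. The 8 under the minimum add little to it, and their log2 differences ran from -0.17 for Camp to 0.94 for Ly6g. Of the tested markers taken singly, Retnlg, Lcn2 and Fpr2 overlapped between the groups. The median deviation of the tested neutrophil markers from their SE means was 0.84, 0.42 and 0.52 in EE mice 1, 2 and 3. In those mice Sirpb1a stood 1.10, 1.61 and 1.19 above its own SE mean and Sirpa 0.29, 0.26 and 0.50. The part of the neutrophil markers in the differences of the SIRP genes was not tested.

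Monocyte markers overlapped between the groups in their summed level, although Mpeg1 and Lyz2 by themselves did not. Of 12 such genes 11 were tested, 1 (Mpeg1) was higher and 0 lower, the median log2 difference was 0.26, and the summed level ranged from 4475 to 6293 in SE and from 5842 to 8224 in EE mice. Lyz2 was the largest part of that sum. Log2 differences of the 11 ran from Treml4, at -0.12 (standard error 0.33), to Ly6c2, at 0.60 (standard error 0.32). Their median deviation was 0.63 in EE mouse 3 and 0.20 and 0.09 in EE mice 1 and 2. Of 7 tested red cell markers 6 were lower and 0 higher (median -0.73), against 3.14% and 1.46% of all probe sets tested. They ran from Kel, at -0.77 (standard error 0.16), to Tfrc, at -0.06 (standard error 0.16). Slc4a1, Epb42 and Ank1 stand both here and among the 5 tested genes of the CD47 complex. The summed red cell level, of which Slc4a1 was the largest part, ranged from 6423 to 8671 in SE and from 4652 to 6084 in EE mice. Of 9 B cell, 8 T cell, 6 platelet and 2 natural killer cell markers tested, 0 were called, and of 6 dendritic cell markers only Cd209a passed the minimum. In EE mouse 3 the B cell and T cell markers were 0.90 and 0.63 below their SE means. The part of these cells in the values of the SIRP genes was likewise not tested.

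**Figure D4:**
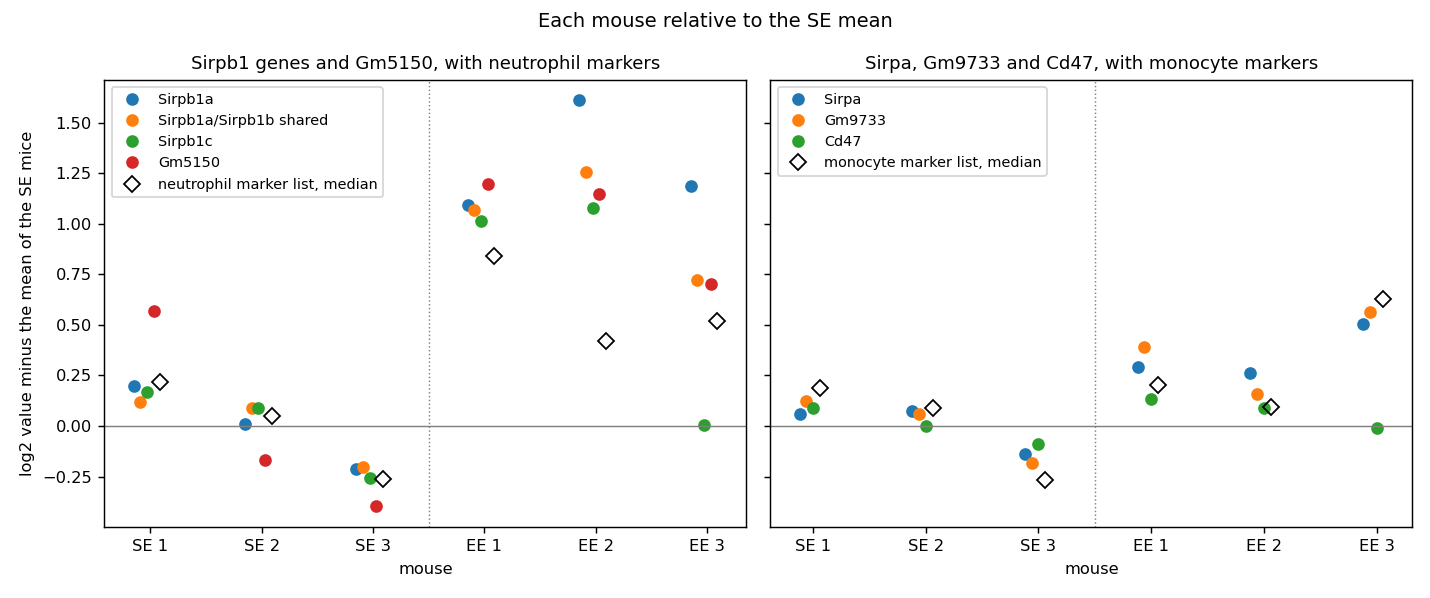
Log2 value of each mouse minus the mean of the SE mice, for the Sirpb1 probe sets and Gm5150 with the median of the neutrophil markers (left) and for Sirpa, Gm9733 and Cd47 with the median of the monocyte markers (right). EE mouse 3 is at 0.01 for Sirpb1c and at 0.50 for Sirpa, and SE mouse 3 is the lowest SE mouse for every probe set shown.

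The probe sets also varied between mice of the same housing, a measure that leaves out the contrast on which the family was chosen. SE mouse 3 was the lowest SE mouse in 7 of 7 probe sets, and in 41.6% of all those tested. EE mouse 3 was the lowest EE mouse in 4 of 7, namely the shared probe set, Sirpb1c, Gm5150 and Cd47, and in 63.4% of those tested. For Sirpa and Gm9733 it was the highest EE mouse, as in 24.1% of those tested. Deviations from the group means were correlated over the 6 mice, which leaves 4 free deviations, so each r is given as a description with no p. All share the same 6 arrays.

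Within the housing groups, Sirpa and Gm9733 deviated together (r = 0.92), and both followed the monocyte markers (r = 0.98 and 0.94) and the platelet markers (r = 0.90 and 0.87), with the B cell markers running the other way (r = -0.83 and -0.82). Among Sirpb1a, the shared probe set, Sirpb1c and Gm5150, r ran from 0.50 to 0.94 over 6 pairs, highest between the shared probe set and Sirpb1c. Cd47 followed Gm5150 (r = 0.95) and the neutrophil markers (r = 0.87), which Gm5150 followed as well (r = 0.81). Between the 2 sets of genes, r was -0.46 for Sirpa with Sirpb1c and -0.24 for Sirpa with the shared probe set. Those negative values rest on EE mouse 3, without which they were 0.93 and 0.80. Leaving it out leaves fewer free deviations, since the remaining EE mice then deviate by equal and opposite amounts. Some marker lists were then also closely tied, with r = 0.98 for monocyte with platelet markers and 0.92 for red cell with T cell markers. Values of r without EE mouse 3 are therefore not ranked. Without that mouse r was 0.85 for Sirpa with Gm9733, ran from 0.55 to 0.94 over the 6 pairs, and was 0.94 for Gm5150 with Cd47. With the neutrophil markers it was 0.87 for Cd47 and 0.70 for Gm5150. Cd47 went from 0.32 to 0.98 with the platelet markers and from 0.20 to -0.93 with the B cell markers, so its link to the neutrophil markers was not particular. The link to the monocyte markers was then not particular to Sirpa (r = 0.96) and Gm9733 (r = 0.92). Sirpb1c went from -0.53 to 0.94 with these markers and the shared probe set from -0.33 to 0.76. Likewise Gm5150 went from 0.07 to 0.81 and Cd47 from -0.02 to 0.95. Gm9733 went from 0.58 to 0.99 with the neutrophil markers. With the platelet markers r was 0.90 for Sirpa and 0.85 for Gm9733, and with the B cell markers -0.57 and -0.68. For Sirpb1a, r was 0.24 with the neutrophil markers and 0.02 with the monocyte markers, and without EE mouse 3 it was -0.06 and 0.42. With the T cell markers r was 0.90 for Sirpb1c, 0.75 for the shared probe set, 0.74 for Cd47 and 0.68 for Gm5150. It was 0.33 for Sirpb1a, -0.52 for Gm9733 and -0.69 for Sirpa. Without EE mouse 3, in the same order, r was 0.19, -0.02, 0.61, 0.75, 0.06, 0.39 and 0.04.

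**Figure D5:**
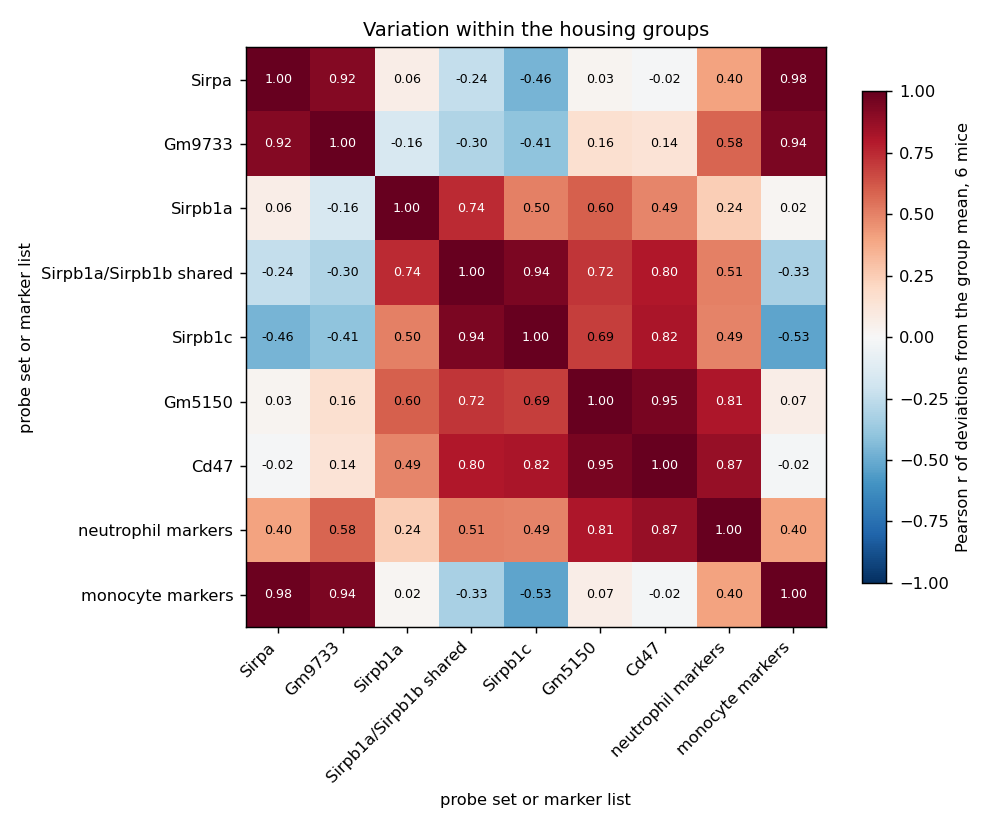
Pearson correlation of the deviations from the group mean over 6 mice, for the 7 probe sets and the medians of the neutrophil and monocyte markers, coloured from -1 (blue) to 1 (red). Sirpa, Gm9733 and the monocyte markers are linked by r of 0.92 to 0.98, and the Sirpb1 probe sets and Gm5150 by r of 0.50 to 0.94, all with EE mouse 3 included.

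Among 5735 genes tested under 1 symbol and outside the family, those most like Sirpb1a over the 6 arrays were Pgam1, a glycolytic enzyme (r = 0.97), Wiz, a zinc finger protein of chromatin (r = 0.96), Csf3r, the G-CSF receptor of neutrophils (r = 0.95), Trappc1, a subunit of a vesicle tethering complex (r = 0.95), and Rpl19, a ribosomal protein (r = 0.95). Their log2 differences ranged from 0.07 for Wiz to 0.61 for Csf3r, and such an r over both groups mostly carries the contrast between EE and SE on which the family was picked. In all 22 genes had an r above 0.9, against a median of -0.06. By deviations within groups, the 3 most like it were Atp5b, of mitochondrial ATP synthase, Ramp1, a partner of calcitonin-type receptors, and Capza2, an actin capping protein (r = 0.99 each), whose log2 differences were -0.27, -0.03 and 0.12. These orders over 6 arrays are a description, and many of so many genes will resemble any 1 profile.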

How the data were processed

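The authors hybridized total RNA of whole blood to 6 Affymetrix arrays, 1 per mouse, used RMA from affy (Bioconductor) to normalize them, and deposited the log2 values as 1 table. RMA includes a quantile normalization of probes, which removes differences in total signal, yet the probe set values still differ somewhat in distribution (array medians 5.03 to 5.11). The annotation used is that of a later version of the Mouse Gene ST array than the methods name. The genome build of the probes is not given in the sources used here. Of 41345 probe sets, 23521 list 1 gene, 1820 several and 16004 none.

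EE was compared with SE with lmFit and eBayes of limma 3.58.1 (R 4.3.3), without covariates and with p-values adjusted by Benjamini-Hochberg across those tested, after leaving out those without an Entrez ID or under 100 on the linear scale (mean log2 value under 6.64). A gene with several probe sets was represented by the one with the highest mean. A call is an unadjusted p under 0.05, to which the study added a fold above 2. The code was tested on simulated data. Depth does not apply to arrays, and 3 mice per group limit precision. The sources used here name no batch or scan date, so no batch was fitted. Promoters were aligned with Biopython 1.88.

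The members, lists and rules were chosen with earlier results of these data known. Named are all member probe sets, the genes most like Sirpb1a, and pathway genes that were called or are central to signalling (Tyrobp, Ptpn6, Ptpn11, Syk). The extremes among tested genes are named for the neutrophil, monocyte and red cell marker lists only. Other marker genes are named outside these rules. The other pathway genes with values, among them Fgr, Gnai2, Thbs1, Skap2, Fyb, Sftpa1 and Sftpd, were picked after their values were seen. Alternatives covered the minimum, the Entrez filter, scaling, limma settings, the mouse number as a block, the summary of probe sets and each mouse left out.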

Additional observations from a re-analysis of the deposited data

How the results depend on the processing

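The count of all tested probe sets at an unadjusted p under 0.05 from limma was 283, and it was 843 with no filter on low values and 1120 with array weights. With a mouse left out it ran from 186 (without EE mouse 1) to 709 (without EE mouse 3). Of these calls 31.8% were higher, against 42.7% after quantile normalization and 46.0% after median centring. The 5 calls among the SIRP and CD47 probe sets were 3 when probe sets without an Entrez ID were kept (Sirpb1c and Gm9733 were lost) and 2 to 4 with a mouse left out. They were 6, with Sirpb1a added, when 100 was asked of at least 1 or at least 3 arrays or when no filter was used, so that its place outside the tested set rests on how the minimum is read. The 7 calls among pathway genes were 3 to 8 with a mouse left out. With the mouse number as a replicate block the counts were 217, 3 and 6, in the order of all, SIRP and pathway probe sets. The number is only a name here, since same-numbered mice deviated with r = -0.26, 0.05 and -0.31 over the probe sets. No log2 difference of the 7 probe sets changed sign under an alternative that tested it. Sirpb1c moved by more than the SD of its SE mice (0.23) with array weights (0.96) and without EE mouse 3. Gm5150 went from 1.02 to 1.30 without SE mouse 1 and to 1.29 with array weights, shifts within the SD of its SE mice (0.50). Quantile normalization and median centring left Gm9733 without a call and called Gnai2. Both lost Ank1, and median centring also lost Epb42. The correlations without EE mouse 3 were added after seeing the data. The cause of these shifts was not tested.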
